A study of Homo sapiens with 6 samples.

Results

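The genes described here are the detected members of the ZNF series, the numbered zinc finger genes, in A375, a human melanoma line. A row of the deposited signal file was a member if its symbol was ZNF with a number and at most 1 letter, and if its detection p-value was under 0.05 on at least 5 of the 6 arrays. The file held 461 such symbols, and 280 of its 38275 rows were members. The detection p-values chose the members, so how many arrays detected a member is a description and supports nothing here. The groups were cells grown for 3 days with 25 µM leflunomide, on 3 arrays, and cells grown for 3 days with DMSO, the solvent, on 3 arrays. Leflunomide inhibits dihydroorotate dehydrogenase, an enzyme of pyrimidine synthesis. Every sample was the same line in the same medium with serum, seeded at 100000 cells per flask. The labels do not say whether the arrays of 1 group stand for separate cultures. The p-values below therefore rest on a spread between arrays that may be technical.

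Most ZNF genes encode proteins with tandem C2H2 fingers, small folds around a zinc ion that read DNA, and together they form the largest group of human transcription factors. Many carry a KRAB domain, which binds the corepressor TRIM28. TRIM28 brings the histone methyltransferase SETDB1, HP1 proteins and the NuRD deacetylase complex to the bound site, and this pathway is best known for silencing retroelements. Large clusters of these genes arose by tandem duplication on human chromosome 19.

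Among the 280 members, 228 had a symbol that is still current and 52 were renamed through RefSeq. Renaming joined 1 member, ZNF539 in the file, to a brighter row of the same gene, ZNF254, so 279 members entered the fit. ZNF539 had signals of 68.2, 88.3 and 44.6 on the leflunomide arrays and 76.0, 82.1 and 70.0 on the DMSO arrays, with overlapping groups. Of the 279, 238 still carry a ZNF name, 11 belong to the ZSCAN or ZKSCAN families (here with SCAND3), whose SCAN domain mediates pairing, and 6 are ZBTB genes, whose BTB domain does so. A further 4 are now annotated as pseudogenes. Some are no DNA-binding factors: RNF112, RNF114, RNF115, LTN1 and UBR3 encode ubiquitin ligases. Genes of the same cluster can be very alike in sequence, and the probe sequences were not used here, so a value may include signal from a near-identical neighbour.

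Signals differed between arrays, and leflunomide replicate 3 stood apart. Mean signals were 129 to 343 units on the leflunomide arrays and 318 to 371 on the DMSO arrays, and 12930 ± 997 and 13885 ± 119 rows were detected (SD, n = 3 each, exact two-sided permutation p = 0.1, the smallest possible). Normalized log2 values of replicate 3 correlated across genes with the other arrays at 0.888 to 0.900, and these with each other at 0.988 to 0.997. Of the melanocyte markers, SOX10 was detected on all 6 arrays, PMEL on 4 and MITF on 1, while MLANA, TYR, DCT, TYRP1 and S100B were not detected on any array. Summed signals of the 8 markers before normalization were 666 to 2343 units with leflunomide and 2235 to 2806 with DMSO. Most of each sum was SOX10, and the lowest was on leflunomide replicate 3, the array with the lowest mean signal. After normalization, with all 6 arrays, SOX10 had a log2 fold change of -0.33 (limma adjusted p = 0.39). PMEL was lower, at -1.11 (limma adjusted p = 0.032). Of 13 markers of fibroblasts, epithelium, immune cells and endothelium, KRT14 and PECAM1 were detected on at least 5 arrays. In these bulk samples of 1 line, fewer cells expressing a gene and less RNA per cell cannot be told apart.

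Members missed detection mostly on leflunomide replicate 3. Of the 280 members, 215 were detected on leflunomide replicate 3, against 277 and 279 on replicates 1 and 2 and 279 to 280 on the DMSO arrays. Of the 71 members with 5 detections, 65 missed leflunomide replicate 3. Among fitted members detected on the other 5 arrays, 23.4% (64 of 273) were not detected there, and among all fitted genes 19.7% (2089 of 10617). Nearest to the threshold on the inside were ZNF600, SCAND3 and ZNF613, whose smallest detection p-values but 4 were 0.0487, 0.0481 and 0.0467. Nearest on the outside were ZNF521, ZNF467 and the ZNF254 row, at 0.0501, 0.0501 and 0.0530.

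Some members that gave strong signals on 5 arrays were at background on leflunomide replicate 3. ZNF549 had signals of 1710, 2028 and 26.2 on leflunomide replicates 1, 2 and 3, and 2225, 2446 and 2566 on the DMSO arrays. RNF114, named ZNF313 in the file and encoding a ubiquitin ligase, had 1062, 1528 and 13.7 with leflunomide and 1776, 2509 and 1640 with DMSO. The inferred mean of the negative controls on replicate 3 was 36.8 ± 6.52 (SD), and both signals there lay below it. ZNF511, ZNF394, ZNF324 and ZNF212 behaved alike, with signals of 35.2, 40.7, 11.3 and 20.8 on that array and at least 219.9 on each of the other 5. Their log2 fold changes were between -1.26 and -1.71 over 6 arrays, none past the threshold, and between -0.19 and 0.11 without replicate 3.

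**Figure D1:**
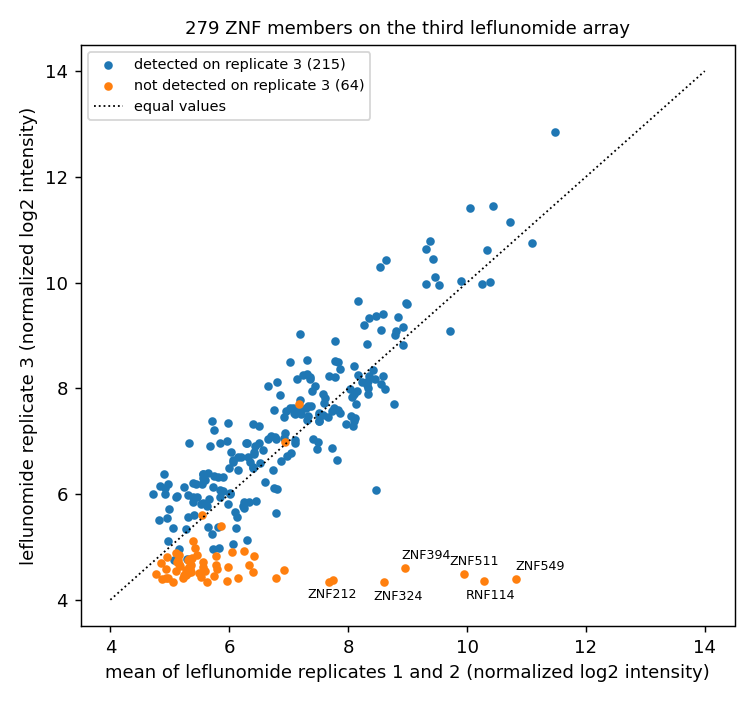
Normalized log2 intensity of the 279 fitted members on leflunomide replicate 3 (vertical) against the mean of leflunomide replicates 1 and 2 (horizontal); colours show detection on replicate 3, and the dotted line marks equal values. Points far under the line, such as ZNF549 and RNF114, had strong signals on the other 2 leflunomide arrays and none above background on this one.

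Over the members, 28 lay at least 1 log2 unit lower on replicate 3 than on the mean of the other leflunomide arrays (10.0%, against 8.27% of all genes). At the same step, 31 lay higher (11.1%, against 5.18% of all genes), and 5 lay at least 4 units lower (1.79%, against 1.73%). Counts and the leading genes below are therefore given with all 6 arrays and without this array.

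With all 6 arrays, 1 member passed limma's threshold, an adjusted p under 0.05 over all 12345 genes, and it was lower. The background was 1.03% of all genes, 0.211% higher and 0.818% lower. At an unadjusted p under 0.05, 14 members were higher (5.02%, against 8.46% of all genes) and 29 lower (10.4%, against 8.4%). The 3 leflunomide arrays lay above the 3 DMSO arrays for 26 members (9.32%, background 14.5%) and below them for 48 (17.2%, background 15.3%). The median log2 fold change of the members was -0.05, and that of all genes was -0.001. The sign differed with detection: the 70 members detected on 5 arrays had a median of -0.30, and the 209 detected on all 6 had 0.06. All genes detected on all 6 had 0.07. Most members with 5 detections missed leflunomide replicate 3, so a low value on that array is built into that class. Without that array the medians were -0.03 for the 70 and -0.06 for the 209.

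The called member was ZNF79, a C2H2 gene. Its normalized log2 intensities were 4.87, 4.83 and 4.70 with leflunomide and 6.43, 5.98 and 6.00 with DMSO, where 4 is the floor set by the offset of 16. All 3 leflunomide arrays lay at least 1 unit below every DMSO array. The log2 fold change was -1.34 ± 0.15 (SE, limma adjusted p = 0.025), a 2.52-fold decrease, and -1.29 ± 0.13 without replicate 3 (limma adjusted p = 3.72e-05). The signals before correction were 66.4, 70.5 and 43.2 with leflunomide and 137, 128 and 113 with DMSO, so leflunomide values lay close to background and the offset understates the change. Leaving out any 1 array other than leflunomide replicate 3 lost the call in the 6-array fit, with log2 fold changes between -1.19 and -1.41 and limma adjusted p of 0.11 to 0.15. Scaling to a common median also lost it (limma adjusted p = 0.089), as did the second deposited table, at -0.44 (limma adjusted p = 0.27). Background parameters inferred over all rows moved ZNF79 most, to -0.10 both with all arrays and without replicate 3 (limma adjusted p = 0.092 and 0.084). The replicate block and the ordinary two-sample test lost the call too with 6 arrays, at adjusted p-values of 0.13 (limma) and 0.079.

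Without leflunomide replicate 3, limma called 49 of the 279 members, 12 higher and 37 lower. The share called was 17.6%, against a background of 19.6%, but the directions were unequal. Members were called lower at 13.3%, against 10.1% of all genes, and higher at 4.30%, against 9.51%. The median over the members was -0.06, and over all genes 0.005. Changes were small: 8 of the 49 reached 1.5-fold, 3 of them higher and 5 lower.

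These counts moved with the arrays and the model. Leaving out a further DMSO array gave 31, 54 and 34 members without DMSO replicate 1, 2 and 3, each with more lower than higher. Over all 12345 genes, the same fits called 1843, 2806 and 1917, also each with more lower than higher. The members' median was -0.06 both without leflunomide replicate 1 and without leflunomide replicate 2. In the 2 fits that lacked a second leflunomide array, the remaining array was assumed to vary like the other group. Background parameters inferred over all rows gave 8 members, 5 higher and 3 lower, and 642 of all genes, 305 higher and 337 lower.

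**Figure D2:**
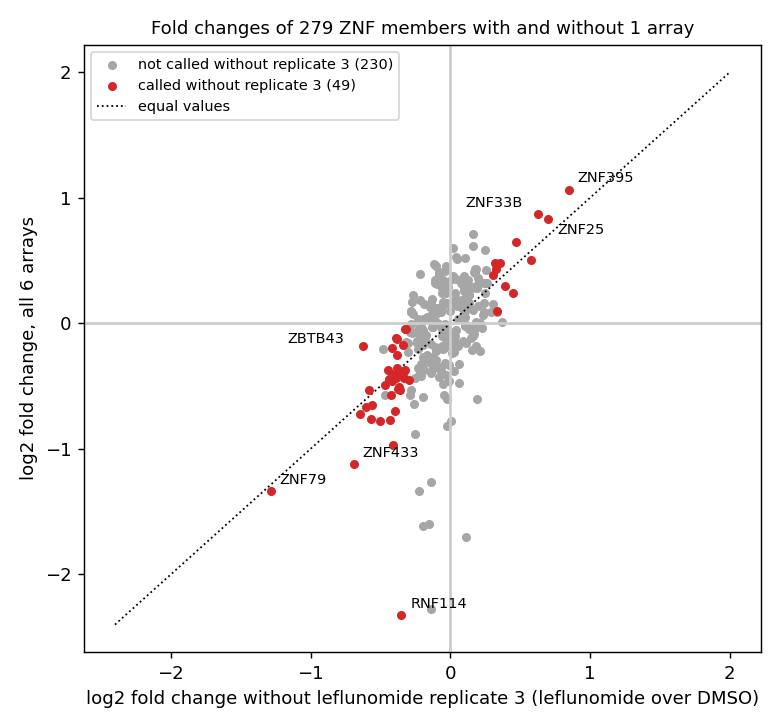
Log2 fold change of the 279 fitted members, leflunomide over DMSO, without leflunomide replicate 3 (horizontal) and with all 6 arrays (vertical); red points are the 49 called without that array. RNF114 lies far under the line of equal values, while ZNF79, ZNF395, ZNF25 and ZNF33B lie near it.

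Among the lower members, ZNF433 on chromosome 19 had log2 intensities of 5.68, 5.81 and 4.44 with leflunomide and 6.60, 6.32 and 6.38 with DMSO. It was not detected on leflunomide replicate 3. Without that array it was at -0.69 ± 0.11 (SE, limma adjusted p = 0.00103), a 1.61-fold decrease, and with it at -1.12 ± 0.37 (limma adjusted p = 0.20). ZNF564, in the same cluster but not next to ZNF433, had 7.66, 7.67 and 7.46 with leflunomide and 8.31, 8.19 and 8.29 with DMSO. Its replicate 3 lay with the other leflunomide arrays. ZNF564 was at -0.60 ± 0.10 (SE) without replicate 3 and at -0.67 ± 0.11 with it (limma adjusted p = 0.00105 and 0.060).

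The upstream sequences of these genes are shown for the following reasons. ZNF79 had the largest decrease, ZNF433 and ZNF564 fell in the same cluster, and ZNF25 was among the 3 largest increases. Each sequence is the 250 bases before the start of the gene, from RefSeq with build GRCh38.p14, on the strand of the gene. Capitals mark matches on either strand to 9 short motifs: the GC box GGGCGG, the CCAAT box CCAAT, the ETS motif CCGGAAGT, the YY1 motif AAGATGGCG, the ZNF143 core ACTACAA, the cyclic AMP element TGACGTCA, the E-box CACGTG, the TATA box TATAAA and the E2F motif GGCGGGAA.
ZNF79 (GRCh38.p14 chr9:127424132-127424381, plus strand): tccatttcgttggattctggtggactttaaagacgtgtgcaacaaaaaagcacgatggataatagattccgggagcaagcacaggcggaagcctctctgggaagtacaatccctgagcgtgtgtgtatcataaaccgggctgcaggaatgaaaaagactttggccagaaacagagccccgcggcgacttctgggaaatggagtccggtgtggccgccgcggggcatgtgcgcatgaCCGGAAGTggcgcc
ZNF433 (GRCh38.p14 chr19:12035680-12035929, minus strand): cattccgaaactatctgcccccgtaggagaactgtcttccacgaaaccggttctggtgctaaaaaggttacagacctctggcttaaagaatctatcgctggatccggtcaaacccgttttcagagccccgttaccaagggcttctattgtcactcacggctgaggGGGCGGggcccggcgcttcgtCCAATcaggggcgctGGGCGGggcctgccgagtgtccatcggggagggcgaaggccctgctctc
ZNF564 (GRCh38.p14 chr19:12551483-12551732, minus strand): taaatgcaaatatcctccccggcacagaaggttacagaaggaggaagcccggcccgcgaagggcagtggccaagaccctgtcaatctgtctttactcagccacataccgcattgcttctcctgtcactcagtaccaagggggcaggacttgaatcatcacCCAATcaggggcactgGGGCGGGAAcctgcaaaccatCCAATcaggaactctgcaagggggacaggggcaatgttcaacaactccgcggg
ZNF25 (GRCh38.p14 chr10:37976648-37976897, minus strand): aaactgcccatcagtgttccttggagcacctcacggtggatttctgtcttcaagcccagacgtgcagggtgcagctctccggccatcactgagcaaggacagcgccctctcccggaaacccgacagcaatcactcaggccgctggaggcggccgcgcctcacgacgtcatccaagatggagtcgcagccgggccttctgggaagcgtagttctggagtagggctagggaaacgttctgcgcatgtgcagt
The GC box and the E2F motif overlap in ZNF564. ZNF79 held 1 match, to the ETS motif, and ZNF25 held none.

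ZNF433 and ZNF564 share a run of 12 bases, CCAATCAGGGGC, which begins 64 bases before the start of ZNF433 and 90 before that of ZNF564. The run was found by comparing these 2 sequences, so its presence there is given. Promoter windows of 300 bases, with the 50 bases after the start, were matched for 240 members. The run stood in 6 of these (2.5%) and in 23 of 27305 windows of all genes (0.0842%). The 6 were ZNF433, ZNF564, ZNF136, ZNF627 and ZNF625, all of 1 cluster on chromosome 19, and ZNF669 on chromosome 1. Without replicate 3, ZNF136, ZNF627 and ZNF669 were at -0.20, -0.19 and -0.27 and ZNF625 was at 0.26, none past the threshold.

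The member promoters were rich in CpG and had few TATA boxes. Their median ratio of observed to expected CpG was 0.806, against 0.580 over all promoters, and their median GC content was 61.5%, against 58.3%. The ETS motif stood in 21.2% of them and 4.44% of all promoters, the GC box in 65.8% and 44.6%, and the TATA box in 2.08% and 12%. The CCAAT box stood in 63.3% of the promoters of the lower members (19 of 30), 44.4% of those of the higher members (4 of 9), 46.2% of those of all members (111 of 240) and 35.7% of all promoters. All promoters here include those of genes not detected in these cells, while the members were chosen by detection. Whether detected genes in general share these features was not tested. These shares describe letters in a window and not binding.

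Other large decreases came from genes with varied known roles. ZNF239, also called MOK2, which binds both DNA and RNA, had 6.96, 6.97 and 6.72 with leflunomide and 7.77, 7.56 and 7.50 with DMSO, without overlap. It was at -0.64 ± 0.11 (SE) without replicate 3 and at -0.73 ± 0.13 with it (limma adjusted p = 0.0013 and 0.073). ZBTB43, named ZNF297B in the file, went the other way on the array that stood apart, with 6.81, 6.79 and 8.13 on leflunomide replicates 1, 2 and 3 and 7.29 to 7.53 on the DMSO arrays. It was called 1.54-fold lower without replicate 3 (limma adjusted p = 0.0013) and was at -0.18 ± 0.37 (SE) with it. ZNF503, a developmental repressor also called NOLZ1, and ZNF550 and ZNF234 on chromosome 19 fell between 1.47-fold and 1.49-fold without replicate 3. ZNF177 and ZSCAN16 were at -0.50 and -0.47, both called. With all arrays these 5 lay between -0.49 and -0.78 and none passed. ZNF503, ZNF550 and ZSCAN16 had every leflunomide array under every DMSO array, replicate 3 included, as did ZNF234 and ZNF177. However, ZNF177 was not detected on replicate 3, with a signal of 43.5 there.

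The largest increase was that of ZNF395, a factor described in hypoxia and innate immune signalling. Its log2 intensities were 9.24, 9.39 and 9.97 with leflunomide and 8.41, 8.50 and 8.50 with DMSO, and every leflunomide array exceeded every DMSO array. Without replicate 3 the log2 fold change was 0.85 ± 0.10 (SE, limma adjusted p = 0.00011), a 1.80-fold increase, and with all arrays it was 1.07 ± 0.20 (limma adjusted p = 0.081). ZNF25 on chromosome 10 had 6.37, 6.26 and 6.71 with leflunomide and 5.69, 5.67 and 5.50 with DMSO, again without overlap. It rose 1.63-fold without replicate 3 (0.70 ± 0.10 SE on the log2 scale, with an adjusted p of 0.000608 by limma) and was at 0.83 ± 0.15 with it (limma adjusted p = 0.073). ZNF33B, listed as ZNF11B and also on chromosome 10, has the close relative ZNF33A, so its signal may not be its own alone. It had 7.88, 7.68 and 8.51 with leflunomide and 7.11 to 7.20 with DMSO, 1.54-fold higher without replicate 3 (limma adjusted p = 0.0011) and at 0.87 ± 0.22 (SE) with it (limma adjusted p = 0.14).

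Smaller increases were called for 9 further members, 7 of them given here. ZNF446, which carries a SCAN domain, rose 1.49-fold (limma adjusted p = 0.0036). ZNF532, known as a fusion partner of NUTM1 in NUT carcinoma, rose 1.39-fold and had 8.28, 8.37 and 8.84 with leflunomide and 7.91, 7.85 and 7.79 with DMSO. ZNF518A rose 1.36-fold without replicate 3, although that array, at 6.86, lay under its DMSO arrays at 6.98 to 7.07. ZNF621, ZNF695, ZNF558 and ZNF250 rose between 1.25-fold and 1.31-fold, with adjusted p-values of 0.028 to 0.047 by limma. ZNF558 was also lower on replicate 3 than on any DMSO array. With all arrays the 7 lay between 0.10 and 0.65 and none passed.

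**Figure D3:**
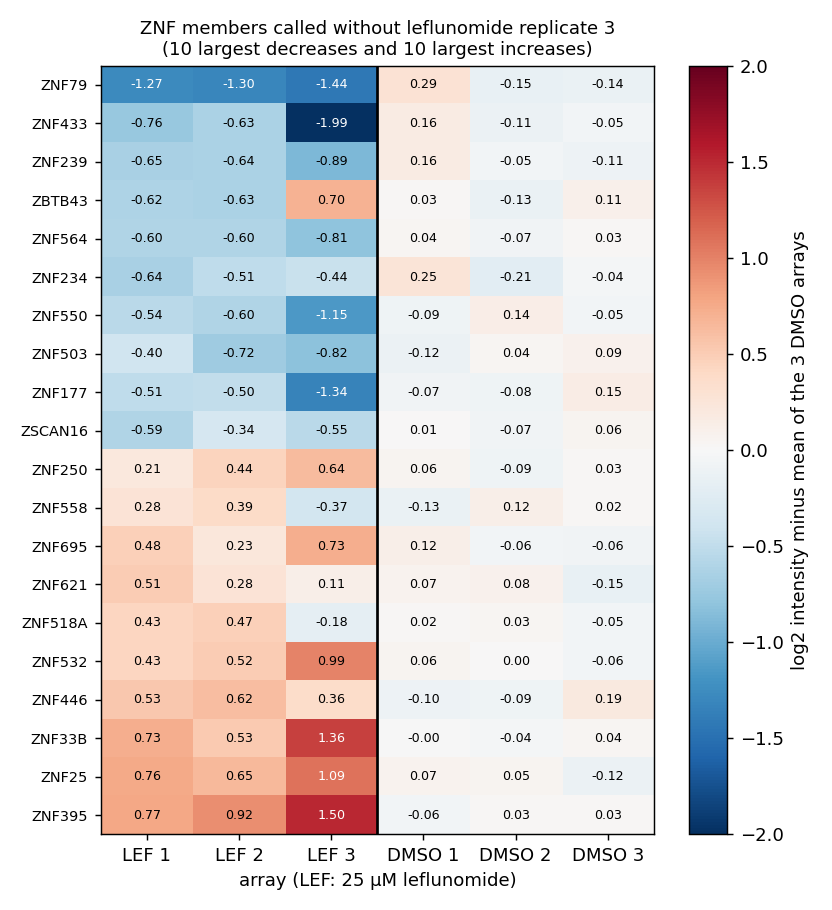
Normalized log2 intensity minus the mean of the 3 DMSO arrays, for the members with the 10 largest decreases and 10 largest increases among those called without leflunomide replicate 3; columns are the 3 leflunomide and the 3 DMSO arrays. The leflunomide columns share a sign in most lines, with ZBTB43, ZNF518A and ZNF558 differing on leflunomide replicate 3.

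Of the 37 lower members, 29 were below all DMSO arrays also on replicate 3, and 7 were above them all there. Those below include all 8 lower members with 5 detections, which were undetected on replicate 3, so their low values there are built in. Among the members detected on all 6 arrays, 29 were called lower, and the groups did not overlap for 21 of them. Of the 12 higher members, 10 were above all DMSO arrays also on replicate 3, and 2 were below them all. Over all 12345 genes, the groups of 6 arrays did not overlap for 72.1% of the 1242 genes called lower and 70.5% of the 1174 called higher, against 78.4% and 83.3% of the members, so these counts lie near the background.

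Members on chromosome 19 were called almost always in 1 direction. In RefSeq's table of GRCh38.p14, 119 of the fitted members lie on chromosome 19 and 160 elsewhere. Without replicate 3, 19 of the 119 were lower (16%) and 2 higher (1.68%), while of the 160 others 18 were lower (11.2%) and 10 higher (6.25%). Among the 592 chromosome 19 genes that were not members, 54 were lower (9.12%) and 38 higher (6.42%). The medians were -0.11 for members on chromosome 19, -0.03 for members elsewhere and -0.02 for the other genes of the chromosome. Whether these groups differ was not tested. With all 6 arrays no member on chromosome 19 passed, and the medians were -0.11 for members on it and 0.01 for members elsewhere. Leaving out a further DMSO array left 13, 24 and 17 called without DMSO replicate 1, 2 and 3, of which 12, 22 and 16 were lower. Over all 12345 genes, those fits called 1843, 2806 and 1917. The median for members on chromosome 19 was -0.13 without leflunomide replicate 1 and -0.11 without leflunomide replicate 2, each left out besides replicate 3. The split was not stable to the processing. With background parameters inferred over all rows and without replicate 3, 2 of the 119 were called, 0 higher and 2 lower, with a median of -0.01.

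**Figure D4:**
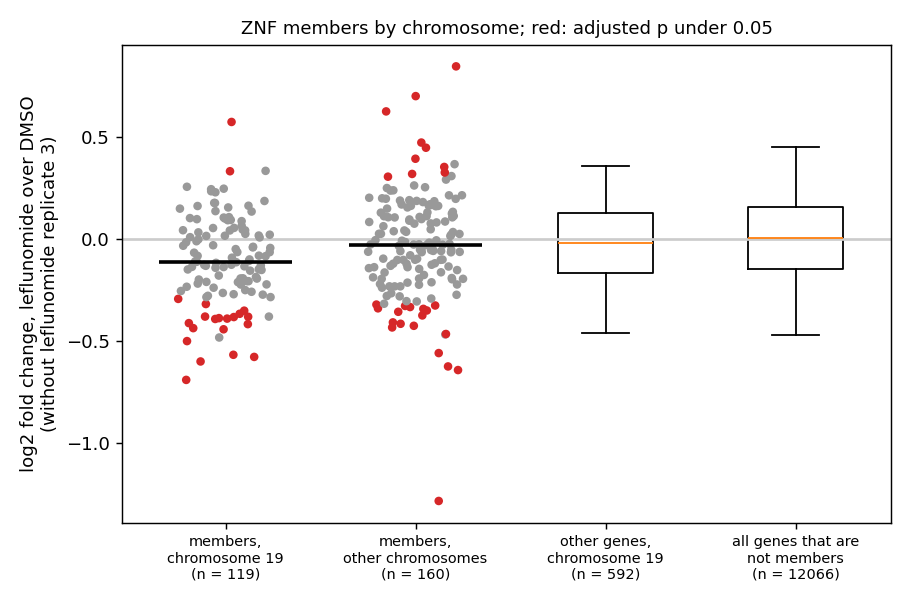
Log2 fold change, leflunomide over DMSO without leflunomide replicate 3, of members on chromosome 19 and elsewhere (points, red where called, black bar at the median), beside boxes of genes that are not members (box at the quartiles, whiskers at the 5th and 95th percentiles). Of the red points on chromosome 19, 19 lie under 0 and 2 above it.

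The lower members of chromosome 19 were spread over several clusters, taken here as runs of at least 4 members with starts under 500000 bases apart. Without replicate 3, 10.1% of all genes were lower and 9.51% higher. The cluster from ZNF653 to ZNF564 had 12 members, with ZNF433, ZNF20 and ZNF564 lower (25%) and a median of -0.16. ZNF20 overlaps a read-through transcript with its neighbour ZNF625. In the cluster from ZNF175 to ZNF347, ZNF175, ZNF350, ZNF615, ZNF320 and the pseudogene ZNF702P were lower among 19 members (26.3%), with a median of -0.18. The cluster from ZNF576 to ZNF285 had 3 lower of 14 (21.4%), ZNF45, ZNF225 and ZNF234. The cluster from ZNF585A to ZNF573 had 2 lower of 7 (28.6%), both at its ends. The longest run, from ZNF264 to ZBTB45, had 26 members, of which ZNF550, ZNF211 and ZNF671 were lower (11.5%, near the background) and ZNF446 higher (3.85%). The 8 members from ZNF101 to ZNF493 and the 6 from ZNF628 to ZNF471 had none called. The 2 other clusters of the chromosome had medians above 0. It was 0.01 for the 11 members from ZNF414 to ZNF562, with ZNF177 lower and ZNF558 higher (9.09% each). For the 4 from ZNF565 to ZNF529 it was 0.09, with none called. With all 6 arrays no member of these clusters passed. Outside chromosome 19, the cluster on chromosome 6 from ZNF165 to SCAND3 had ZSCAN16 and ZSCAN9 lower among 6 members (33.3%). These cluster genes were picked by position and call.

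Members with roles tied to p53 and DNA damage had a median of -0.28 over 7 tested of 8 listed, without replicate 3, with 3 lower and none higher, where 10.1% of all genes were lower and 9.51% higher. With all 6 arrays the median was 0.10 and none passed. ZNF350, also called ZBRK1, a BRCA1 partner that represses GADD45A, had 5.54, 5.56 and 4.63 with leflunomide and 5.98, 5.82 and 6.02 with DMSO. It was 1.31-fold lower without replicate 3 (limma adjusted p = 0.017) and at -0.70 ± 0.27 (SE) with that array, on which it was not detected. ZNF24, a SCAN factor that represses VEGFA, and ZNF385A, an RNA-binding protein induced by p53 that steers its target choice, were 1.33-fold and 1.27-fold lower without replicate 3. ZNF24 was not detected on replicate 3, where it had 4.65 against 6.19 and 6.49 on the other leflunomide arrays, and ZNF385A was higher there, at 8.36, than on any DMSO array. ZNF346, which binds double-stranded RNA, was at -0.28 and did not pass.

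Of the list of promoter factors and chromatin cofactors, 16 of 28 were fitted members, with a median of 0.02, 2 lower and 1 higher without replicate 3. The shares were 12.5% lower and 6.25% higher, against 10.1% and 9.51% of all genes. ZNF143, an activator that binds many promoters and anchors chromatin loops, had 8.01, 8.11 and 7.83 with leflunomide and 8.50, 8.31 and 8.40 with DMSO. All its leflunomide arrays lay under its DMSO arrays, and it was 1.27-fold lower without replicate 3 (limma adjusted p = 0.031, and 0.16 with all arrays). ZNF219 was 1.35-fold lower, and at -0.77 ± 0.30 (SE) with all arrays, not called, and ZNF395, above, was the higher one. ZNF217, an oncogene product that works with CtBP corepressors, was at 0.37 ± 0.13 (SE), short of the threshold (limma adjusted p = 0.061). With all arrays ZNF217 was at 0.01.

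Without replicate 3, genes with roles in RNA and translation had 2 lower, ZNF239 and ZNF385A, and none higher among 8 tested of 11. The share lower was 25%, where 10.1% of all genes were lower and 9.51% higher. ZNF622, a factor in maturation of the large ribosomal subunit, was at -0.22 and did not pass. None of the 3 tested genes of mitosis and genome stability passed. ZNF207, whose product BuGZ helps load the checkpoint protein BUB3 on kinetochores, was at -0.10 ± 0.10 (SE), ZNF318 at 0.13 and ZNF668 at -0.05. The list of silencers of repeats and ZNF clusters had 5 members and none called without replicate 3, with a median of -0.21, and -0.44 with all arrays. ZNF91 and ZNF93, which silence SVA and LINE-1 elements, were at -0.22 ± 0.10 and -0.21 ± 0.10 (SE), and ZNF274, which recruits SETDB1 to ZNF genes, was at -0.25 ± 0.10 (limma adjusted p = 0.13, 0.18 and 0.090). ZNF10, the source of the KRAB domain used in synthetic repressors, was at -0.03. ZNF91 had a signal of 11.6 on replicate 3 and at least 204.6 on each other array, and with all arrays it was at -1.33 ± 0.90.

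The brightest members, ZNF486, ZNF207, VEZF1, ZNF622 and ZNF581, had signals of at least 590.9 on every array, and the dimmest, ZNF519, ZNF699 and RNF112, had at most 79.8. Signals of different probes do not rank the abundance of their transcripts. The median over members of the mean log2 intensity was 6.57, and over all genes tested 7.24. None of the 8 passed the threshold in either fit.

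Genes of the corepressor pathway that KRAB zinc finger proteins work through were set beside the members, and whether they differ from them was not tested. Without replicate 3, 8 of the 25 tested corepressor genes were higher and 1 was lower, with a median of 0.23, where 9.51% of all genes were higher and 10.1% lower. The second deposited table gave 2 higher and 1 lower of 17, and background parameters inferred over all rows 1 higher and 1 lower of 25. Higher were CBX1 and CBX3, which encode HP1 proteins that read methylated histone H3, and UHRF1, the partner of DNMT1 in keeping DNA methylation. So were RBBP7, MTA2 and CHD4 of the NuRD complex, MORC2, a silencing ATPase, and TRIM28 itself. CBX5, which also encodes an HP1 protein, was at 0.31 and did not pass (limma adjusted p = 0.053). MPHOSPH8, a subunit of the HUSH silencing complex listed under an older name, was the lower one, with a log2 fold change of -0.43 and a limma adjusted p of 0.028. With all 6 arrays none of the 25 passed, and the median was 0.17.

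TRIM28 was at 0.35 ± 0.10 (SE) without replicate 3, a 1.27-fold increase (limma adjusted p = 0.034), and at 0.36 ± 0.11 with it (limma adjusted p = 0.17). CBX1 had log2 intensities of 7.56, 7.20 and 6.98 with leflunomide and 6.64, 6.46 and 6.56 with DMSO. It was 1.78-fold higher without replicate 3 (limma adjusted p = 0.00052), and UHRF1 1.59-fold and RBBP7 1.39-fold. With all arrays CBX1, UHRF1 and RBBP7 were at 0.70, 0.42 and 0.25, and none passed. UHRF1 on leflunomide replicate 3, at 9.85, lay within the range of its DMSO arrays, 9.80 to 10.12. RBBP7 on that array, at 8.766, lay just under its lowest DMSO array, at 8.771. SETDB1, the methyltransferase, was at 0.10 ± 0.11 (SE) and DNMT1 at 0.10 ± 0.12, neither past the threshold. The count depended on single arrays. With a further DMSO array left out it was 3 (replicate 1) and 6 (replicate 3), all higher, and 11 (replicate 2), 10 higher and 1 lower. Over all 12345 genes, those fits called 1843, 1917 and 2806, in that order. The median over the corepressor genes was 0.20 with a further leflunomide array left out, whether replicate 1 or replicate 2.

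**Figure D5:**
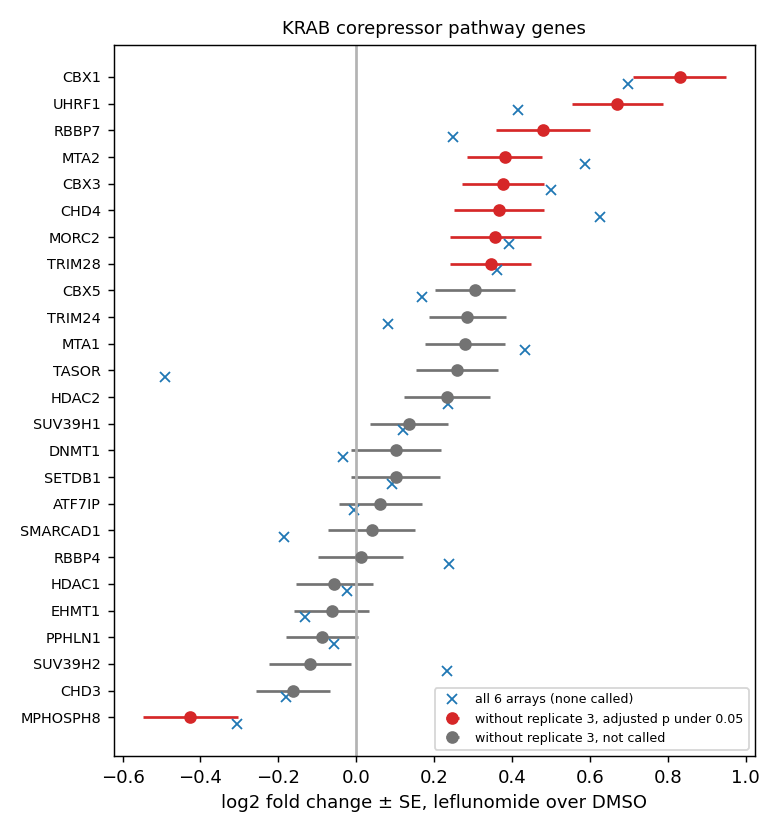
Log2 fold change of the 25 tested corepressor genes, leflunomide over DMSO; circles with SE bars are without leflunomide replicate 3 (red where called), crosses are all 6 arrays. Of the red circles, 8 lie above 0, led by CBX1 and UHRF1, and MPHOSPH8 lies below it.

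Finger genes under other family names, detected by the same rule, were set beside the members. Without replicate 3, 18 ZBTB genes had 2 higher (11.1%) and 5 lower (27.8%), with a median of 0.07. Over all genes 9.51% were higher and 10.1% lower, and among the members 4.30% and 13.3%. The 16 KLF and SP genes, whose products bind GC boxes, had 1 higher (6.25%) and 2 lower (12.5%), with a median of 0.09. The 10 ZFP genes had 1 higher (10%) and 1 lower (10%), with a median of -0.11. With all 6 arrays none passed, and the medians were -0.05 for ZBTB, the opposite sign, 0.10 for KLF and SP and -0.05 for ZFP. Whether any of these differs from the members was not tested.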

How the data were processed

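Biotinylated cRNA from A375 cells was hybridized to Illumina bead arrays, per the labels' protocols. The intensity values that the authors deposited are bead signals on a linear scale, with 1 row per gene symbol and a detection p-value against each array's negative control beads, per the file headers. The submitters' processing notes name GenomeStudio. The probe annotation and genome build were not stated in what was used here.

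Normexp background correction (limma 3.58.1, R 4.3.3) used an offset of 16 and control parameters inferred from 32290 rows whose detection p-values are ranks among 759 negative controls. Quantile normalization followed. Rows detected on at least 3 arrays were kept, symbols were updated through RefSeq (GRCh38.p14), and 1 row per gene left 12345 genes. The groups were compared by lmFit and eBayes of limma, with Benjamini-Hochberg adjustment over all genes. Deviations of same-numbered arrays from their group means correlated at -0.01, 0.20 and 0.21. Arrays with different numbers were not compared, so these values cannot show whether the numbers mark pairs. Replicate numbers were not taken as pairs in the main fit, and a block on them was an alternative.

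A second table of deposited intensity values, in which each array is rescaled by 1 factor, has no gene names. It was an alternative for the 31575 rows that could be tied to it by value. Members, lists and tests were chosen with earlier results of these data known. Genes were named by a rule: members called with all arrays, the 10 largest increases and decreases called without leflunomide replicate 3, the 6 largest drops on that array, the 5 brightest and 3 dimmest, up to 4 per list, and 3 on each side of the detection threshold. Other genes were named after their values were seen. The test was tried on simulated arrays with known changes. Protein sequences were not used here, so KRAB domains were not assigned.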

Additional observations from a re-analysis of the deposited data

How the results depend on the processing

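The members' median changed sign under some settings, and the split of member calls without leflunomide replicate 3 turned to 5 higher and 3 lower with background parameters over all rows. With 6 arrays, leaving out 1 array gave 0 to 49 members and 3 to 2416 genes, the high end being without leflunomide replicate 3; renormalizing those 5 arrays gave 47 and 2381, and limma's array weights 54 and 2518. The replicate number as a block gave 0 members (37 at an unadjusted p under 0.05) and 4 genes, and the ordinary two-sample test 0 (34) and 39. Background parameters over all rows, no background correction and no detection filter gave 2 members each, rows detected on all 6 arrays 4, and median scaling, the second deposited table and members detected on all 6 arrays 0 (39, 37 and 36 unadjusted). The members' median was -0.0043 with background parameters over all rows, 0.023 with median scaling (all genes 0.12), 0.0072 in the second table and 0.062 for rows or members detected on all 6 arrays (all genes 0.067).

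Without leflunomide replicate 3, counts are for members, members on chromosome 19, corepressor genes and all genes, in that order. The second table gave 32, 13, 3 and 1552, background parameters over all rows 8, 2, 2 and 642, and the ordinary two-sample test 0 (61 unadjusted), 0 (28), 0 (10) and 7. A further array left out gave 12, 4, 1 and 790 (leflunomide replicate 1), 20, 10, 3 and 960 (leflunomide replicate 2), 31, 13, 3 and 1843 (DMSO replicate 1), and 34, 17, 6 and 1917 (DMSO replicate 3). Causes were not tested. Dim members lie near the offset, which limits the fold change they can show.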
